A study of Mus musculus with 20 samples.

Results

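Atf4, Ddit3, Trib3, Asns, Chac1, Psat1, Phgdh, Hspa5, Xbp1 and Herpud1, genes of ATF4 signalling and of the unfolded protein response, were followed in cultured mouse hippocampal neurons treated with NMDA receptor antagonists. Members were the array probes that carry one of these 10 gene names and are not control spots. This gave 13 of 41174 probes, 3 for Phgdh, 2 for Trib3 and 1 for each of the others. All 13 probes were well above background in the channel of the cultures on all 20 arrays, so all 10 genes were among the 19338 genes tested. Neurons were kept in dissociated culture in 6-well plates to day 21 in vitro and exposed for 24 h. The 4 groups, of 5 arrays each, received vehicle (control), 100 µM AP5, 100 nM NVP-AAM077 (NVP) or 1 µM of a compound that the labels call by a Ro25 code, here Ro25. AP5 is a competitive antagonist of NMDA receptors, and NVP-AAM077 is a competitive antagonist that prefers receptors holding the Grin2a subunit. The 3 agents were used at different doses, so differences between them compare these treatments and not the compounds at a matched dose. RNA of the whole culture was labelled with Cy5 and hybridised with a universal mouse reference RNA in Cy3. Each value is a log2 ratio of culture over reference.

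ATF4 is a transcription factor whose mRNA is translated more when stress kinases phosphorylate eIF2, the step known as the integrated stress response. It drives genes of amino acid synthesis and uptake, aminoacyl-tRNA synthetases, and the regulators Ddit3 (CHOP) and Trib3. The unfolded protein response of the endoplasmic reticulum (ER) reaches ATF4 through the kinase PERK, and acts in parallel through ATF6 and the spliced form of Xbp1, which raise chaperones such as Hspa5 and degradation factors such as Herpud1. The arrays read mRNA levels, not translation of Atf4 or splicing of Xbp1.

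The upstream sequences of 5 members are shown, because Asns, Chac1, Herpud1 and Hspa5 carry a match to a response element through which these pathways are known to act, and Atf4 was the member that changed. Each is the 250 bases before the annotated transcript start, written 5′ to 3′ on the gene's strand, from RefSeq with build GRCm38.p6, with motif matches in capitals and the rest in lower case. The positions are chr15:80254934-80255183 (plus strand) for Atf4, chr6:7693210-7693459 (minus strand) for Asns, chr2:119350992-119351241 (plus strand) for Chac1, chr8:94386179-94386428 (plus strand) for Herpud1 and chr2:34771840-34772089 (plus strand) for Hspa5.
Atf4: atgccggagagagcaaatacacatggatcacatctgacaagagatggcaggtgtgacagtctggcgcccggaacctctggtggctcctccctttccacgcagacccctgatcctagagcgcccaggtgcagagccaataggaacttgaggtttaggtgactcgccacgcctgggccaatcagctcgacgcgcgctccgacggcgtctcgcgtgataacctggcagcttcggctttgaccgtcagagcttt
Asns: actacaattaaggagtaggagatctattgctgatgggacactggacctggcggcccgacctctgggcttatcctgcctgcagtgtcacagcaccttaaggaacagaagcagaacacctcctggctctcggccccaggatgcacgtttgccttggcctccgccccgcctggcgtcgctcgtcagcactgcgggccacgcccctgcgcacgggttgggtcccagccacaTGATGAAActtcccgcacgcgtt
Chac1: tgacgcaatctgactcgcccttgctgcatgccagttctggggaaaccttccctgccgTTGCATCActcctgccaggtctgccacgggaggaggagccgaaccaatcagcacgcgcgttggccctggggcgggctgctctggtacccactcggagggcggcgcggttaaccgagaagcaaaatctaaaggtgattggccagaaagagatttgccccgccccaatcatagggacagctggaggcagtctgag
Herpud1: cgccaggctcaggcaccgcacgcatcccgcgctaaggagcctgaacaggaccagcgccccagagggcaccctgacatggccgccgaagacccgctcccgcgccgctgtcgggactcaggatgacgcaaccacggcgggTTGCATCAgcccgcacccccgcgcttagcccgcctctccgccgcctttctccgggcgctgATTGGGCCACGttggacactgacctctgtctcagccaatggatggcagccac
Hspa5: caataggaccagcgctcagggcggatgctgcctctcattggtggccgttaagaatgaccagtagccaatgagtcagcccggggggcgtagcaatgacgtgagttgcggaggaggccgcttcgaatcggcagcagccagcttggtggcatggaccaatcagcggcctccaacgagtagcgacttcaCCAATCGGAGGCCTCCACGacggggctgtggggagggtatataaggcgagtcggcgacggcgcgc

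All 10 members had an entry in the RefSeq promoter table, 11 promoters in all since Psat1 had 2. The C/EBP-ATF response element was searched as TGATGNAA on both strands and was found in Asns, where it starts 23 bases before the transcript start, in Chac1 (193 bases, minus strand) and in Herpud1 (112 bases, minus strand). The same letters occurred in 3.45% of all 32851 mouse promoters. The ER stress response element, searched as CCAAT and CCACG with 9 bases of any kind between them, occurred in Hspa5 65 bases before the start and in 0.113% of all promoters. Its second form, ATTGG and CCACG with 1 base of any kind between them, occurred in Herpud1 52 bases before the start and in 0.0304% of all promoters. No member held TGACGTGG (0.563% of all promoters) or TGACGTCA (1.55%), and the Atf4 window held none of the 5 motifs. Matches were sought on both strands, those counted did not overlap, and the motif letters were chosen after the promoters had been seen; a match is a description of these letters only.

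Several properties of the arrays bear on the values below. The arrays lay on 7 slides, and no slide held AP5 together with control or NVP together with control; control 3, on a slide with 3 Ro25 arrays, was the 1 control array that shared a slide with treated samples. In a fit with slide as a block, the antagonists are therefore joined to control through control 3 alone. Array 5 of every group deviated from its group mean in a like way over all genes. Correlations among the 6 pairs of these arrays were 0.568 to 0.763, with a median of 0.659, against medians of -0.142 to 0.0569 for the other numbers. Single pairs sharing another number reached 0.505, and single pairs of different numbers reached 0.78. The labels do not say what the arrays numbered 5 share. Array 1 of AP5 had the lowest mean log2 ratio of 15 astrocyte markers (2.76, group mean 3.71) and of 14 neuron markers (4.04, group mean 4.57). Group means of the astrocyte markers were 3.67 to 3.71, and all 15 astrocyte and all 14 neuron markers were well above background on all arrays. None of these 29 markers passed the test between any antagonist and control; Gfap, the astrocyte filament protein, differed by -0.06 (SE 0.65) and Aqp4, the astrocyte water channel, by 0.07 (SE 0.46) in AP5. Of the markers of other cell types, 1 of 7 for microglia rose and 1 fell with AP5, 1 of 6 for fibroblasts fell, 1 of 4 for endothelium rose and 0 of 10 for the oligodendrocyte lineage passed; with NVP and Ro25 none did. Mean log2 ratios in control and AP5 were -1.81 and -1.85 for microglia, -4.22 and -4.16 for fibroblasts and -0.31 and -0.20 for endothelium, and their part in the results was not tested.

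Atf4, the central transcription factor of the pathway, was the 1 member whose mRNA was lower with AP5 past the threshold. The other 9 members, each read from its brightest probe, did not pass in any comparison with control. The log2 ratios of Atf4 were -1.96, -2.12, -2.33, -2.35 and -2.00 on the AP5 arrays and -1.66, -1.57, -1.72, -1.57 and -1.27 on the control arrays. They were -1.63, -1.71, -1.68, -1.74 and -1.25 with NVP and -1.52, -1.74, -1.78, -1.49 and -1.35 with Ro25. Every AP5 array lay below every one of the 15 other arrays, while the control, NVP and Ro25 arrays overlapped. Means were -1.56 ± 0.17 in control, -2.15 ± 0.18 with AP5, -1.60 ± 0.20 with NVP and -1.57 ± 0.18 with Ro25 (SD, n = 5 each). In order of level the 3 groups other than AP5 thus did not differ beyond their spread.

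Atf4 was 1.51-fold lower with AP5 than in control, a log2 difference of -0.59 (SE 0.11, 95% interval -0.83 to -0.36, limma adjusted p = 0.00222). Against NVP the difference was -0.55 (limma adjusted p = 0.00455) and against Ro25 it was -0.58 (limma adjusted p = 0.00412). NVP and Ro25 themselves differed from control by -0.04 (95% interval -0.28 to 0.19) and -0.02 (-0.25 to 0.22) on the log2 scale. Both intervals, from the fit without slide, leave out the AP5 difference of -0.59. With slide as a block the differences from control were 0.52 with NVP (95% interval 0.04 to 1) and 0.26 with Ro25 (-0.09 to 0.62). Neither passed the threshold (limma adjusted p = 0.751 and 0.651). The AP5 difference in that fit, 0.15, lies inside both intervals. One member of 10 called in AP5 against control compares with 6.12% of all genes tested, and 1 member with groups that did not overlap compares with 6.42%. In AP5 against NVP 1 member was called (5.78% of all genes) and did not overlap (6.96%). In limma NVP against control gave 0 called members and 0 at an unadjusted p under 0.05, where 0% and 5.87% of all genes did. Ro25 against control likewise gave 0 and 0 members, where 0.0155% and 4.34% of all genes did, and NVP against Ro25 gave 0 and 0, where 0% and 5.91% did. The contrasts of AP5, NVP and Ro25 with control share the same 5 control arrays.

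Slide limits the Atf4 result. With slide as a block the AP5 difference from control was 0.15 (SE 0.23, limma adjusted p = 0.748), which turns its direction, and that from NVP was -0.37 (SE 0.14, limma adjusted p = 0.29). The difference from Ro25, -0.58 without the block, was then -0.11 (SE 0.16, limma adjusted p = 0.777). Within slides, AP5 5 was 0.30 lower than the mean of 3 NVP arrays (log2 difference -0.30), AP5 1 differed from Ro25 2 by -0.22, and 3 Ro25 arrays differed from control 3 by 0.26. Slide and treatment cannot be told apart for AP5 against control, since no slide held both. With each array centred on its median in place of loess, the difference was -0.48 (SE 0.28, limma adjusted p = 0.842). In that setting 165 of all 19338 genes passed in AP5 against control, where 1183 did with loess. Astrocyte markers were read as mRNA of the whole culture, which is not a count of astrocytes. With their mean as a covariate the Atf4 difference from control was -0.60 (limma adjusted p = 0.00172). Without the 4 arrays numbered 5 it was -0.56 (limma adjusted p = 0.0019). In RNA from a whole culture, fewer cells that express a gene and less RNA per cell cannot be told apart.

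**Figure D1:**
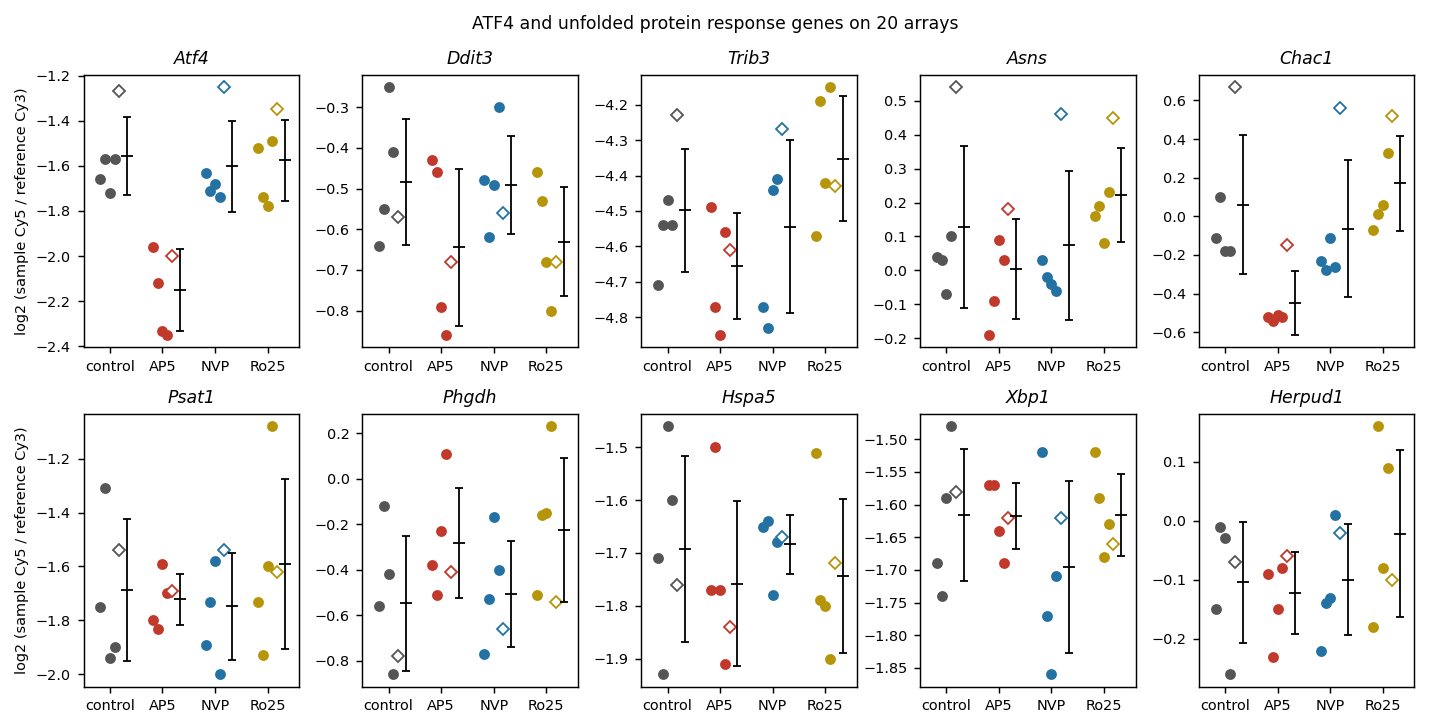
Log2 ratio of culture over reference (vertical axes, each on its own scale) for the 10 members on 20 arrays, by group. Points are arrays, open diamonds the arrays numbered 5, and bars show mean ± SD. The AP5 arrays of Atf4 lie between -2.35 and -1.96, below all the other arrays, and for Chac1 and Asns the open diamond is the highest of each group.

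Among the regulators that ATF4 is known to induce, Ddit3 and the brighter probe of Trib3 did not pass with AP5, while the dimmer probe of Trib3 did. Ddit3, which encodes the stress transcription factor CHOP, ranged from -0.86 to -0.43 with AP5 and from -0.64 to -0.25 in control. Its AP5 difference was -0.16 (95% interval -0.36 to 0.04, limma adjusted p = 0.434), its Ro25 difference -0.15 (limma adjusted p = 1), and its NVP difference -0.01. All 4 groups overlapped for Ddit3. With slide as a block its Ro25 difference was -0.4 (95% interval -0.76 to -0.03, limma adjusted p = 0.623).

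Trib3 encodes a pseudokinase that feeds back on ATF4. Its brighter probe ranged from -4.85 to -4.49 with AP5 and from -4.71 to -4.23 in control, the groups overlapping, with a difference of -0.16 (SE 0.11, limma adjusted p = 0.539). Its dimmer probe gave -0.28 with AP5 (SE 0.08, limma p adjusted over 28498 probes 0.0484), -0.26 with NVP and -0.24 with Ro25 (limma adjusted p = 0.496 and 0.921). For Ro25 the brighter probe differed by 0.15 and the dimmer by -0.24, so the probes disagreed in direction there. AP5 differed from Ro25 in the brighter probe by -0.31 (limma adjusted p = 0.189). In the dimmer probe AP5 differed from Ro25 by -0.04 and from NVP by -0.01 (limma p adjusted over 28498 probes 0.939 and 0.961). Trib3 was thus below control with AP5 in both probes, and only the dimmer probe passed.

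Chac1 encodes an enzyme that breaks down glutathione and is a known target of ATF4. On the AP5 arrays its log2 ratios were -0.52, -0.54, -0.51, -0.52 and -0.15, and on the control arrays they were -0.11, 0.10, -0.18, -0.18 and 0.67. With NVP they were -0.23, -0.28, -0.11, -0.26 and 0.56, and with Ro25 -0.07, 0.01, 0.06, 0.33 and 0.52. Arrays 1 to 4 of AP5 were within 0.03 of each other and below every array of the other groups, while AP5 5 overlapped the control and NVP arrays. The AP5 difference from control was -0.51 (SE 0.17, 95% interval -0.87 to -0.15, limma adjusted p = 0.0941), which did not pass the threshold.

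The Chac1 call turned on the arrays numbered 5, each the highest of its group. Without those 4 arrays the AP5 difference was -0.43 (SE 0.09, limma adjusted p = 0.00801), an alternative chosen after the data had been seen. Without control 5 alone the AP5 difference was -0.36, and without AP5 5 alone it was -0.58. Neither of these passed (limma adjusted p = 0.235 and 0.0671). With the replicate number as a block it was -0.51 (limma adjusted p = 0.00267), and with the astrocyte marker mean as a covariate -0.53 (limma adjusted p = 0.0353). With slide as a block it was 0.20 (SE 0.45, limma adjusted p = 0.836), which turns the direction. AP5 and Ro25 did not overlap for Chac1 and differed by -0.62 (95% interval -0.98 to -0.26, limma adjusted p = 0.0551); 2 members did not overlap in that contrast, where 3.95% of all genes did not and 3.1% were called. AP5 differed from NVP by -0.39 (limma adjusted p = 0.231).

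**Figure D2:**
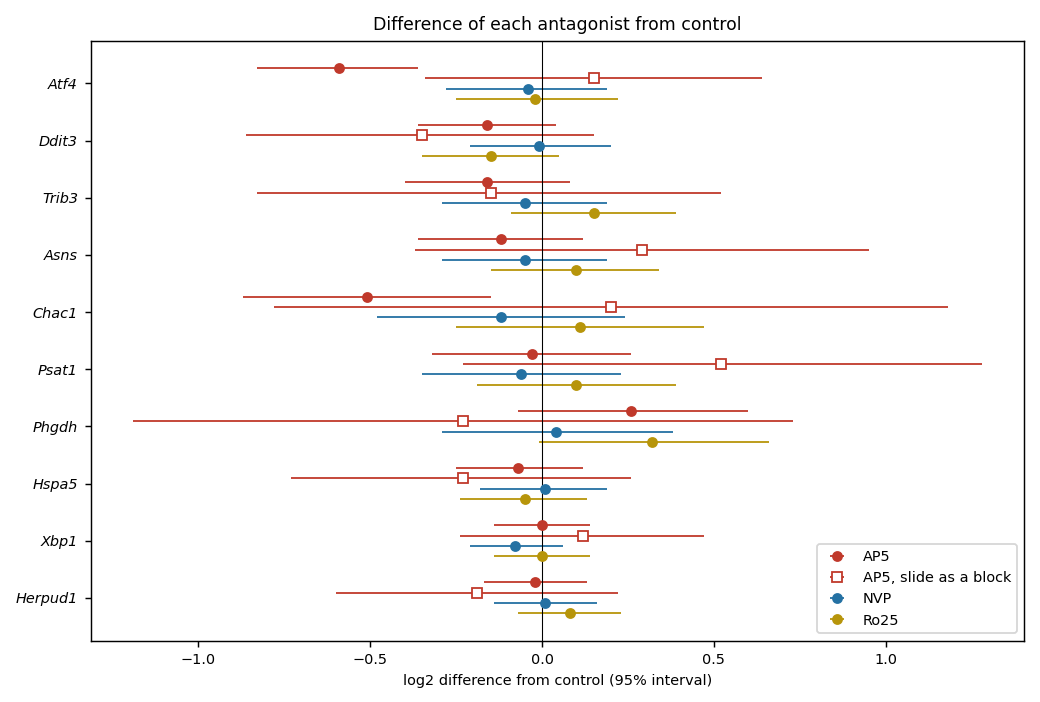
Log2 difference from control with its 95% interval (horizontal axis) for each member (vertical axis) with AP5, NVP and Ro25, and for AP5 with slide as a block (open squares). Only the interval of Atf4 and that of Chac1 with AP5 lie wholly below 0, and the AP5 values with slide as a block for both genes, 0.15 and 0.20, lie above 0.

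The amino acid synthesis members showed no difference that passed. Asns, the asparagine synthetase, read -0.19, -0.09, 0.09, 0.03 and 0.18 with AP5 and 0.04, 0.03, -0.07, 0.10 and 0.54 in control. It read 0.03, -0.02, -0.04, -0.06 and 0.46 with NVP and 0.16, 0.19, 0.08, 0.23 and 0.45 with Ro25. Array 5 was again the highest of each group, and the groups overlapped. The AP5 difference was -0.12 (95% interval -0.36 to 0.12, limma adjusted p = 0.683), and those of NVP and Ro25 were -0.05 and 0.10.

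Phgdh and Psat1 catalyse the first steps of serine synthesis from a glycolytic intermediate, a pathway that in brain is strong in astrocytes. Phgdh ranged from -0.86 to -0.12 in control, from -0.51 to 0.11 with AP5, from -0.77 to -0.17 with NVP and from -0.54 to 0.23 with Ro25. Its brightest probe was higher than control by 0.26 with AP5 (95% interval -0.07 to 0.60, limma adjusted p = 0.445) and by 0.32 with Ro25 (unadjusted p = 0.0594, limma adjusted p = 1), with all groups overlapping. The other Phgdh probes gave 0.21 and 0.04 with AP5 and 0.25 and 0.12 with Ro25, the same direction. Psat1 differed by -0.03 with AP5 (95% interval -0.32 to 0.26), -0.06 with NVP and 0.10 with Ro25, and its widest group was Ro25, from -1.93 to -1.08.

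Members of the ER arm did not pass against control with any antagonist. Hspa5, which encodes the main ER chaperone BiP, differed from control by -0.07 with AP5 (95% interval -0.25 to 0.12), 0.01 with NVP and -0.05 with Ro25. Xbp1, the transcription factor of the IRE1 branch, differed by 0.00 with AP5 (-0.14 to 0.14), -0.08 with NVP and 0.00 with Ro25. Herpud1, a membrane protein of ER-associated degradation, differed by -0.02 (-0.17 to 0.13), 0.01 and 0.08. Their groups overlapped in all 3 contrasts. Without slide in the fit, the AP5 intervals leave out changes as large as that of Atf4. With slide as a block the AP5 intervals were -0.73 to 0.26 for Hspa5, -0.6 to 0.22 for Herpud1 and -0.24 to 0.47 for Xbp1. Those of Hspa5 and Herpud1 take in the Atf4 difference of -0.59. Over the 10 members the median log2 difference was -0.09 with AP5, -0.05 with NVP and 0.09 with Ro25, beside -0.012, -0.011 and 0.002 over all genes.

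The other genes of these pathways, 86 in 7 roles, gave 5 that rose and 3 that fell with AP5, while 78 did not pass; 8 of 86 compares with 6.12% of all genes. The median log2 difference of the 86 was -0.03. With NVP and with Ro25, 0 of 86 passed in limma, and 5 and 3 had an unadjusted p under 0.05. With AP5 2.53% of all genes rose past the threshold, and the gene lists were chosen with earlier results of these data known. The 5 listed genes that rose with AP5 all belong to the list of ER-associated degradation and translocation, which holds 14 genes and had a median of 0.10. They were Sec24d, a coat protein of vesicles leaving the ER (0.53, SE 0.07, limma adjusted p = 9.12e-05), Selenos (0.31, adjusted p = 0.0104), Derl1 (0.24, adjusted p = 0.0119), Derl3 (0.43, adjusted p = 0.025) and Wfs1, the wolframin ER membrane protein (0.48, adjusted p = 0.0427). Selenos, Derl1 and Derl3 act in moving misfolded proteins out of the ER. Of the same list Sec61a1, the channel subunit of the ER translocon, fell (-0.21, adjusted p = 0.045); Wfs1 and Sec61a1 were named after their values had been seen.

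Of the 13 genes of the aminoacyl-tRNA synthetase list, which includes the tRNA exportin Xpot, 1 fell, Cars, the cysteinyl-tRNA synthetase (-0.28, SE 0.08, limma adjusted p = 0.0475), and the list's median was -0.10. Of 10 amino acid synthesis and one-carbon enzymes 1 fell, Aldh18a1, which makes a precursor of proline (-0.22, SE 0.06, limma adjusted p = 0.0435). In the remaining roles none passed. The lowest adjusted p among 12 stress sensors and regulators of eIF2 was that of Ppp1r15a, the stress-induced subunit of the eIF2 phosphatase (-0.33, limma adjusted p = 0.0695). Among 12 partner and target regulators of ATF4 it was Jdp2 (-0.27, limma adjusted p = 0.0539), among 9 amino acid transporters Slc3a2 (-0.12, limma adjusted p = 0.233) and among 16 ER chaperones and folding enzymes Pdia6 (-0.19, limma adjusted p = 0.0945). With slide as a block 0 of the 86 passed in limma with AP5 and 3 had an unadjusted p under 0.05, while 41 of all genes passed (0.212%). Sec24d then differed by 0.32 and Cars by 0.11. The count of 8 fell to between 3 and 5 when AP5 1, 3, 4 or 5 or control 1, 3, 4 or 5 was left out.

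**Figure D3:**
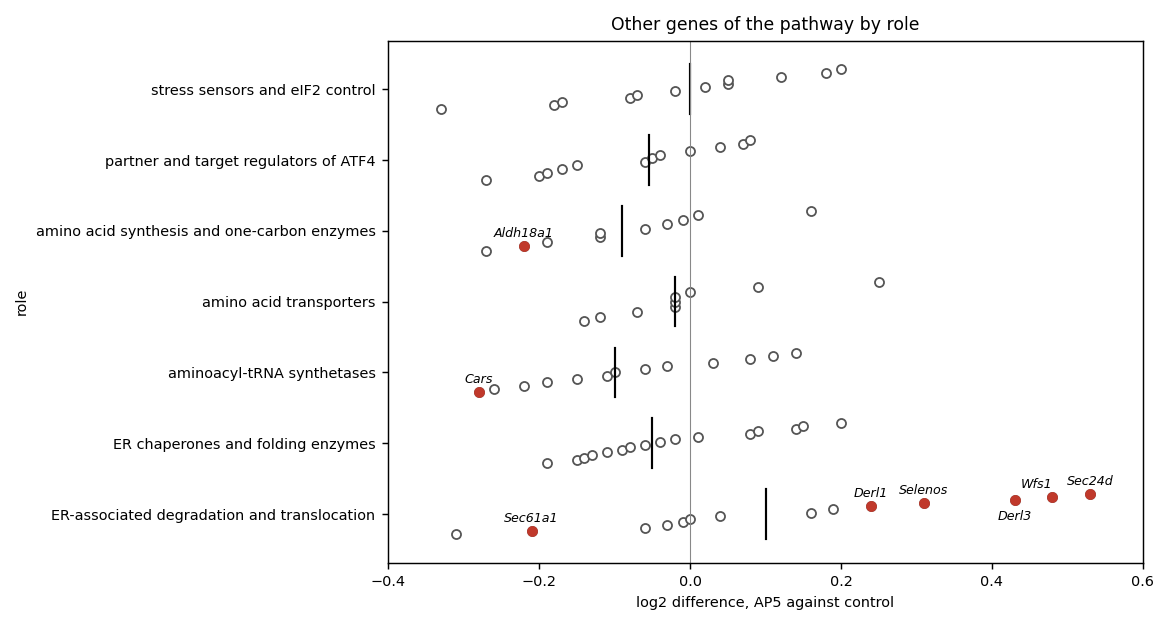
Log2 difference of AP5 from control (horizontal axis) for 86 pathway genes grouped by role (vertical axis); filled points passed the limma test, open points did not, and each vertical bar is the role's median. The 5 genes that rose stand to the right in the degradation and translocation role, from 0.24 to 0.53.

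Across arrays within groups, Atf4, Chac1 and Asns were high together on the arrays numbered 5. Array 5 was the highest of its group in 4 of 4 groups for Chac1 and Asns and in 3 of 4 for Atf4, but in 0 of 4 for Ddit3, Phgdh, Hspa5 and Xbp1. As deviations from group means over all 20 arrays, r was 0.803 for Atf4 and Chac1 and 0.899 for Asns and Chac1. It was 0.681 for Atf4 and Asns (permutation, adjusted p 0.0133, 0.0133 and 0.0446). In the same order rho was 0.556, 0.602 and 0.433 (permutation, adjusted p 0.05, 0.05 and 0.158). Because the 4 arrays numbered 5 stand apart, correlations were also taken over the other 16 arrays, a choice made after the data had been seen. There Atf4 and Chac1 had r = 0.265 and rho = 0.138 (permutation p adjusted over 45 member pairs 0.603 and 0.811), Atf4 and Asns r = -0.270 and rho = -0.182 (permutation, adjusted p 0.625 and 0.733), and Asns and Chac1 r = 0.194 and rho = 0.268 (permutation, adjusted p 0.603 and 0.528). Chac1 and Psat1 had r = 0.901 and rho = 0.829 over those 16 arrays (permutation, adjusted p 0.0419 and 0.021), but over all 20 r was 0.546 and did not pass, with rho = 0.782 (permutation, adjusted p 0.103 and 0.0155).

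In 5 of the 45 pairs both coefficients had an adjusted p of at most 0.05 with and without the arrays numbered 5. The share of all gene pairs that meet this mark was not computed, so the count describes these pairs and is not a trait of the members. Trib3 and Herpud1 varied together over 20 arrays, with r = 0.695 and rho = 0.722 (permutation, adjusted p 0.0257 and 0.0417), r = 0.679 without the 2 arrays farthest from the median of Trib3 and r = 0.709 over the 16 arrays. Ddit3 and Psat1 ran opposite, with r = -0.661 and rho = -0.717 (permutation, adjusted p 0.0133 and 0.0155), -0.667 without the 2 farthest arrays and -0.650 over the 16. Phgdh and Xbp1 also ran opposite, with r = -0.685 and rho = -0.639 (permutation, adjusted p 0.0133 and 0.05), -0.740 and -0.781. Phgdh ran opposite to Hspa5 as well, with r = -0.627 and rho = -0.644 (permutation, adjusted p 0.0489 and 0.05), -0.529 and -0.759. Within the ER arm, Hspa5 and Xbp1 varied together, with r = 0.540 and rho = 0.576 (permutation, adjusted p 0.0376 and 0.05), 0.599 and 0.591. On the 17 arrays of the first scan day r for the 5 pairs, in this order, was 0.697, -0.655, -0.689, -0.629 and 0.557, and slides held too few arrays for a value. All 45 pairs were examined after the data had been seen.

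**Figure D4:**
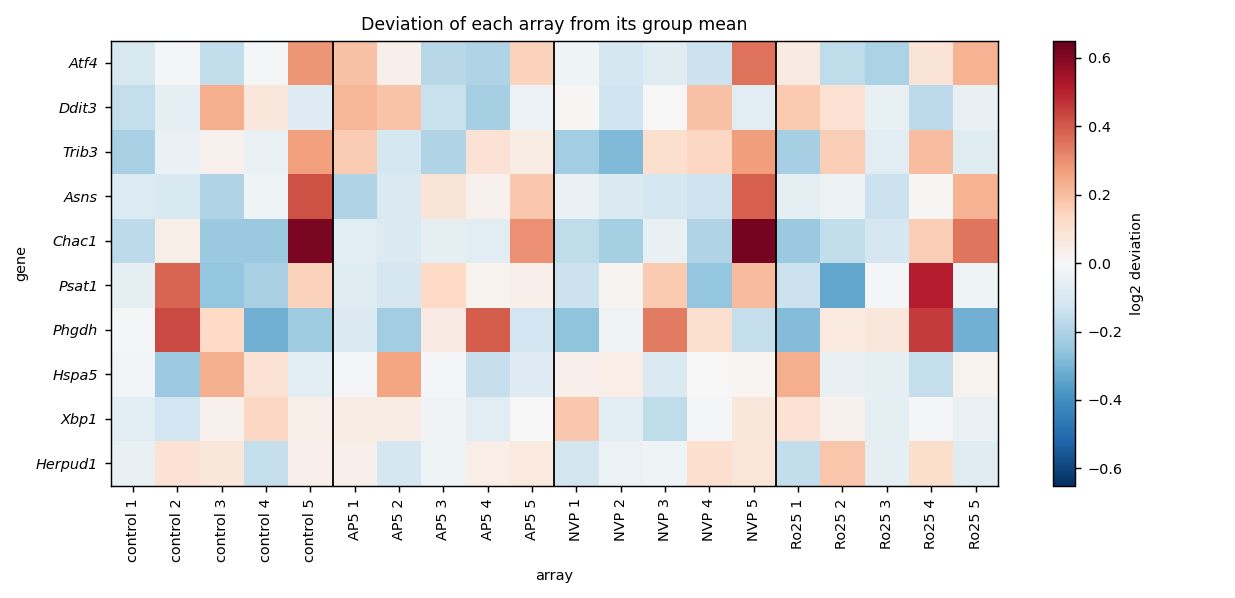
Deviation of each array from its group mean on the log2 scale (colour) for each member (rows) and array (columns), with black lines between groups. Chac1 and Asns, and except with AP5 also Atf4, are highest on array 5 of each group, and the largest deviations are those of Chac1 on control 5 and NVP 5.

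**Figure D5:**
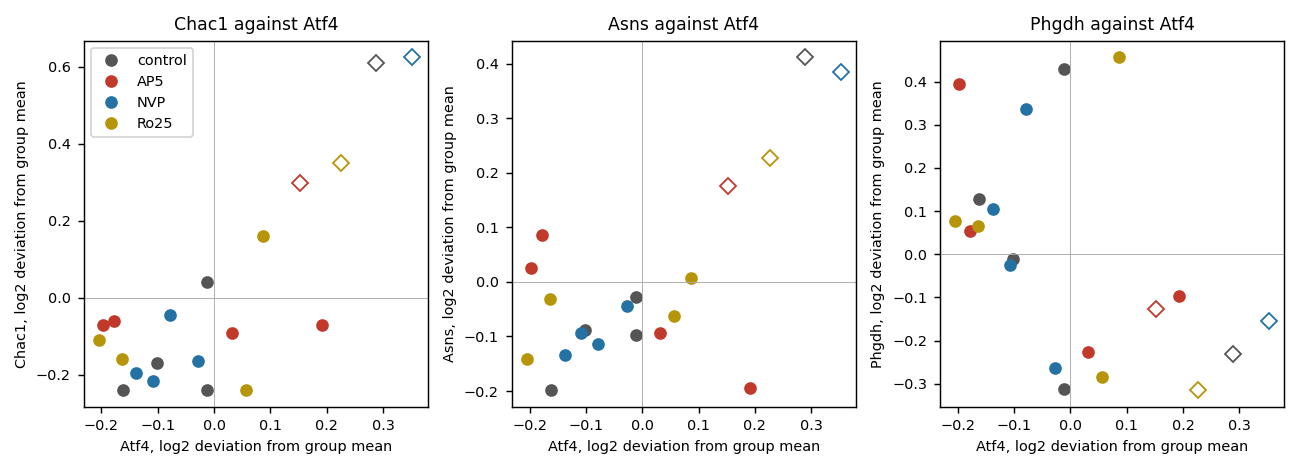
Log2 deviation from the group mean of Chac1, Asns and Phgdh (vertical axes) against that of Atf4 (horizontal axes) on 20 arrays; open diamonds are the arrays numbered 5. The diamonds lie at the upper right for Chac1 and Asns. Over the 20 arrays r was 0.803 for Chac1 and 0.681 for Asns, and over the 16 arrays without number 5 it was 0.265 and -0.270.

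Some members also moved with the astrocyte marker mean within groups, a relation computed for each of the 10 members. The share of all genes with as close a relation was not computed, so it is not shown to be particular to these members. The marker mean itself deviated from its group mean by -0.95 on AP5 1 and by 0.18 to 0.46 on the arrays numbered 5. Ddit3 was lower where the markers were higher, with r = -0.70 and rho = -0.692 (permutation, adjusted p 0.00525 and 0.005), -0.651 without the 2 arrays farthest from the median, -0.635 on the first scan day and -0.746 without the arrays numbered 5. Asns was higher with the markers, with r = 0.652 and rho = 0.681 (permutation, adjusted p 0.00525 and 0.005), but over the 16 arrays without number 5 its adjusted p was 0.108 for r = 0.658 and 0.276 for rho = 0.421 (permutation). Chac1 had r = 0.532 and rho = 0.657 (permutation, adjusted p 0.0252 and 0.005), which over the 16 arrays were r = 0.227 and rho = 0.441 (permutation, adjusted p 0.379 and 0.195). Psat1 had r = 0.462 and rho = 0.650 (permutation, adjusted p 0.0484 and 0.005) and over the 16 arrays r = 0.464 and rho = 0.694 (permutation, adjusted p 0.0906 and 0.0138). For Atf4, r was 0.22 (rho = 0.242, permutation, adjusted p 0.479 and 0.506), 0.589 on the first scan day and -0.404 without the arrays numbered 5. Phgdh, the serine synthesis enzyme known to be strong in astrocytes, had r = -0.101 and rho = -0.141 (permutation, adjusted p 0.68 and 0.706). With the marker mean as a covariate, the AP5 difference from control was -0.15 for Ddit3, -0.13 for Asns and -0.04 for Psat1. None passed (limma adjusted p = 0.283, 0.473 and 0.907), and that of Chac1 is given above. The part of astrocyte content in the values of these members was otherwise not tested.

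The genes whose ratios were most like those of Atf4 over the 20 arrays were Cars (Pearson r = 0.927), the cysteinyl-tRNA synthetase, Ppa2 (0.927), a mitochondrial inorganic pyrophosphatase, Ak6 (0.919), 2810025M15Rik (0.916), a noncoding RNA, and Snrpa1 (0.913), a spliceosome protein. As deviations from group means r was 0.916 for Cars and 0.734 to 0.811 for the other 4. Without the arrays numbered 5 it was 0.812 for Cars and 0.686 to 0.796 for the others. The r that chose these genes includes the AP5 arrays, so lower values with AP5 are part of the choice and are not a separate result. By role, r with Atf4 within groups was above 0.5 for 5 of the 13 genes of the tRNA synthetase list, 4 of 12 partner and target regulators and 4 of 16 ER chaperones and folding enzymes, where 10.1% of all genes were. The other 4 roles had 1 gene each, of 9 to 14. Over the 16 arrays without number 5 the counts were 1 of 13, 2 of 12 and 4 of 16, where 4.88% of all genes were, and 1 of 12 stress sensors and none in the 3 remaining roles. These arrays share slides and labelling, and the values of r are given as a description.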

How the data were processed

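RNA came from 20 samples labelled as 5 replicates of each of 4 treatments. It was measured on 2-colour Agilent arrays, culture in Cy5 and reference in Cy3, without dye swap. Samples were grouped by their titles. The labels do not say whether replicates are separate cultures or animals, so each p-value reflects only how far these samples spread. The authors deposited scanner output whose spot intensity is linear; Feature Extraction was version 10.7.3.1 per the file headers and 11.0 per the submitters' processing notes. The scanner's own log10 ratio, deposited in the same output, served as an alternative. The series' value table, deposited by the authors as log2 ratios, held 20674 probes with 20 columns used; over 11134 probes it followed the scanner's log ratio (converted to log2) with slopes of 0.834 to 0.858 and r of 0.987 to 0.991, which settles its direction. Its column medians were 0.0302 to 0.0626, and its normalization and centring are not given in the sources used here.

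Intensities were corrected with normexp (offset 50), normalized by loess within arrays and averaged per probe. Per array, 86 to 172 outlier spots were set aside and none was saturated. Between 58.6 and 69.3% of probes had red signal well above background, and the number of arrays limits the precision. A probe stayed in if 5 arrays or more met that mark in red (28498 probes), and each gene was read from its brightest kept probe. Names came from a RefSeq table of GRCm38.p6, matched by accession (22951 probes), symbol (6659), synonym (3109) or gene number (294); the other 8161 have the scanner file's own name. One limma model (version 3.58.1, R 4.3.3, data.table version 1.17.8) with a mean per group over 20 arrays was tested two-sided with Benjamini-Hochberg adjustment over 19338 genes at 0.05 (residual df 16, prior df 3.67), and the scripts were tested on simulated data. Correlations used 100000 permutations of arrays within groups (numpy 2.4.6, scipy 1.17.1, pandas 2.3.3), and figures were drawn with matplotlib 3.10.9.

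The members, gene lists and tests were chosen with earlier results of these data known. Named were all members, up to 4 genes per role past the threshold by adjusted p (or the gene of lowest adjusted p for AP5), the 5 genes most like Atf4, Gfap and Aqp4. Replicate numbers were not taken to pair samples: same-numbered arrays correlated at -0.447 to 0.763 in their deviations from group means, and 4 of 20 arrays correlated best with their own number. Alternatives covered normalization, dim probes, probe choice, slide, scan day, the replicate number, astrocyte markers and each array left out; those on the arrays numbered 5 and the 45 member pairs were added after seeing the data.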

Additional observations from a re-analysis of the deposited data

Results flagged for a closer look

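Within groups of 5, a single array stood far from the rest in 5 of the 40 combinations of member and group. All 5 were arrays numbered 5, which deviated in a like way over all genes. The 40 combinations come from the same 20 arrays and are not independent, so no rate expected by chance is set beside them. The share over all genes was not computed. For Atf4, NVP 5 read -1.25 on the log2 scale and the nearest NVP array -1.63. For Asns, control 5 read 0.54 (nearest 0.10) and NVP 5 read 0.46 (nearest 0.03). For Chac1, NVP 5 read 0.56 (nearest -0.11) and AP5 5 read -0.15 (nearest -0.51).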

How the results depend on the processing

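The fall of Atf4 with AP5 kept its direction and its side of the threshold in limma under every alternative except slide as a fixed block (0.15) and median centring (-0.48, adjusted p = 0.842); leaving out each array in turn gave -0.64 to -0.52. The count of members past the threshold in AP5 against control, against NVP and against Ro25 was 1 each, and 0 in all 3 with slide as a fixed block and with median centring. It was 2 in all 3 with the replicate block and with the arrays numbered 5 as a block; 2 against control and Ro25 with those arrays left out and with the astrocyte covariate; and 2 against Ro25 alone with slide as a random block, with probes well above background on 15 arrays, and without AP5 5 (range 1 to 2). Of 19338 genes, AP5 against control called 1183 in the main fit, 41 with slide as a fixed block and 165 with median centring. The calls were 1238 with the replicate block and 1458 with the arrays numbered 5 as a block. They were 821 with those arrays left out, 1464 with the astrocyte covariate and 912 on the first scan day alone. The 8 pathway genes past the threshold with AP5 became 0 with slide as a fixed block and with median centring, 3 on the first scan day alone and without the arrays numbered 5, 4 with no filter on dim probes, and 3 to 8 with each array left out.

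Differences that turned direction, none of which passed the threshold, were these. With slide as a fixed block, AP5 against control gave Psat1 0.52, Phgdh -0.23, Asns 0.29 and Chac1 0.20, NVP against control gave Atf4 0.52, Asns 0.27, Chac1 0.33, Psat1 0.40, Phgdh -0.29, Hspa5 -0.10, Herpud1 -0.15 and Xbp1 0.02, and Ro25 against control gave Atf4 0.26 and Herpud1 -0.04. With median centring, AP5 gave Herpud1 0.12, Asns 0.04, Hspa5 0.10 and Psat1 0.12, NVP gave Herpud1 -0.04, Hspa5 -0.05 and Phgdh -0.02, and Ro25 gave Atf4 0.02. Others were Hspa5 with NVP at -0.01 (scanner's processed signals, value table, and arrays numbered 5 left out), Herpud1 with NVP at -0.01 (arrays numbered 5 left out), Trib3 with Ro25 at -0.05 (mean over probes) and Atf4 with Ro25 at 0.03 (first scan day). The causes were not tested. With 1 array left out, the ranges that crossed 0 were Psat1 with AP5 -0.09 to 0.06, Herpud1 with AP5 -0.06 to 0.01, Atf4 with NVP -0.13 to 0.03, Ddit3 with NVP -0.05 to 0.05, Trib3 with NVP -0.12 to 0.02, Asns with NVP -0.15 to 0.05, Chac1 with NVP -0.28 to 0.03, Psat1 with NVP -0.12 to 0.04, Phgdh with NVP -0.04 to 0.15, Hspa5 with NVP -0.05 to 0.07, Herpud1 with NVP -0.03 to 0.04, Atf4 with Ro25 -0.07 to 0.05, Psat1 with Ro25 -0.03 to 0.19.

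With the replicate number as a block, Atf4 with AP5 was -0.59 (limma adjusted p = 0.000156) and Chac1 -0.51 (limma adjusted p = 0.00267). The standard error of Atf4 with AP5 was 0.11, against 0.28 with median centring and 0.23 with slide as a fixed block. All member probes were well above background on all 20 arrays.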
